A study of Danio rerio with 6 samples.

Results

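The zebrafish genes followed here are 7 genes of the retinoic acid pathway: cyp26a1, cyp26b1 and cyp26c1, which encode enzymes that break retinoic acid down, aldh1a2, which encodes an enzyme that makes it, and raraa, rarab and rarga, which encode its nuclear receptors. Their targets on the expression array, each a set of probes for 1 transcript, were found by the gene name or RefSeq accession in the array design, or by a map marker where the name was blank. This gave 11 of 38489 targets, with 5 for rarga and 1 for each of the other 6 genes. Whole sphere-stage embryos gave the total RNA, at a time in the blastula when the zygotic genome has only recently been switched on. Of 6 arrays, 3 were of embryos injected with nanog-like MO1, which the labels describe with a defect in gastrulation, and 3 of embryos injected with control-MO, labelled normal. A morpholino is an antisense oligonucleotide that blocks translation or splicing, and nanog-like, now named nanog, is a homeobox factor loaded into the egg as maternal transcript. All embryos were injected and kept in E3 water, and the labels place each array's sample in a separate culture. The strain, whether embryos were pooled for a sample and the way MO1 acts were not given in the sources used here.

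Retinoic acid is made from vitamin A in 2 oxidation steps, the last carried out by Aldh1a enzymes, and is removed by the P450 enzymes of the Cyp26 family. It binds retinoic acid receptors (Rar), which sit on DNA with retinoid X receptors (Rxr) and switch target genes on or off. In zebrafish, aldh1a2 is known as the gene mutated in neckless and cyp26a1 as the gene mutated in giraffe. Through the gastrula the balance of synthesis and breakdown helps to set the boundary between head and trunk tissue, and cyp26a1 is itself a known target of retinoic acid.

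Raw intensities per array had medians between 408 and 529 and lowest values between 77 and 119. Precision is limited by the small number of arrays. Levels below are normalized intensities on the log2 scale. The level of nanog was 14.89 ± 0.06 in nanog-like MO1 embryos and 14.91 ± 0.06 in control embryos (SD, n = 3 each), which is no check of the knockdown, since a morpholino need not lower its transcript. Among 9 early zygotic marker genes limma called 6 lower and 1 higher, with a median log2 fold change of -3.05 over all 9. Of 5 yolk syncytial layer markers 3 fell and 2 did not pass. Of 7 enveloping layer markers, 6 maternal markers and 11 markers of tissues that form later, 0 passed in limma, while 3, 0 and 2 of them had an unadjusted p under 0.05. At that unadjusted threshold 5.03% of all targets were lower and 5.3% higher. Log2 fold changes of the enveloping layer markers ran from -0.62 to 2.16 (median 0.314), so an unchanged layer is not shown. Counts use limma at an adjusted p under 0.05, a rule that 0.65% of all targets passed.

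The comparison asks which retinoic acid genes differed between embryos given the nanog-like morpholino and those given the control. Of the 11 targets 1 fell, that of cyp26a1, and 0 rose, where 0.39% of all targets were lower and 0.26% higher by the same rule. Its raw intensities were 1224, 1277 and 892 in nanog-like MO1 replicates 1 to 3, against 5605, 6417 and 6152 in control replicates 1 to 3. The groups were far apart: the brightest morpholino array was well below the dimmest control array. Normalized levels were 10.16, 10.36 and 9.54 in nanog-like MO1 embryos and 12.44, 12.57 and 12.63 in control embryos. The mean was 10.02 ± 0.43 in nanog-like MO1 embryos and 12.55 ± 0.10 in control embryos (SD, n = 3 each). This was a log2 fold change of -2.53 (SE 0.22, 95% interval -3.05 to -2.01, limma adjusted p = 0.00688), or a level 5.77-fold lower. Control arrays lay close together and morpholino arrays were more spread, with replicate 3 the lowest.

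The gene that encodes this retinoic acid-degrading enzyme was lowered but not lost from the arrays. On single arrays its raw intensity stood above that of 57.9% to 65.2% of all targets in nanog-like MO1 embryos, against 85.9% to 87.9% in control embryos. Among the 150 targets that were lower by the test, 37, cyp26a1 included, fell by at least as much (0.0961% of all targets). The design places the target on chromosome 12 from 4091932 to 4095524, and all its 12 probes were kept on every array. Where in the transcript the probes lie was not analysed here. In a whole embryo, fewer cells with a transcript and less of it per cell cannot be told apart. The summed raw intensity of the 9 early zygotic markers moved the same way, at 13374 to 17311 in nanog-like MO1 arrays against 48865 to 59171 in control arrays. That of the 5 yolk syncytial layer markers was 2216 to 3374 in nanog-like MO1 arrays against 4823 to 8187 in control arrays. The gene mxtx2 is in both marker lists. Without it the other 4 yolk syncytial layer markers summed to 1477, 1833 and 2858 in nanog-like MO1 arrays and 1766, 3058 and 2638 in control arrays, which overlap, although 2 of the 4 fell. The part of either in the fall of cyp26a1 was not tested. Without control replicate 3 the call was lost (adjusted p = 0.052, log2 fold change -2.47). The labels carry array numbers, and 1 range of them holds all 3 control arrays and nanog-like MO1 replicate 3. Against the control mean that array gave -3.01, and with a term for the ranges, which rests on that 1 morpholino array, limma gave adjusted p = 0.0833.

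**Figure D1:**
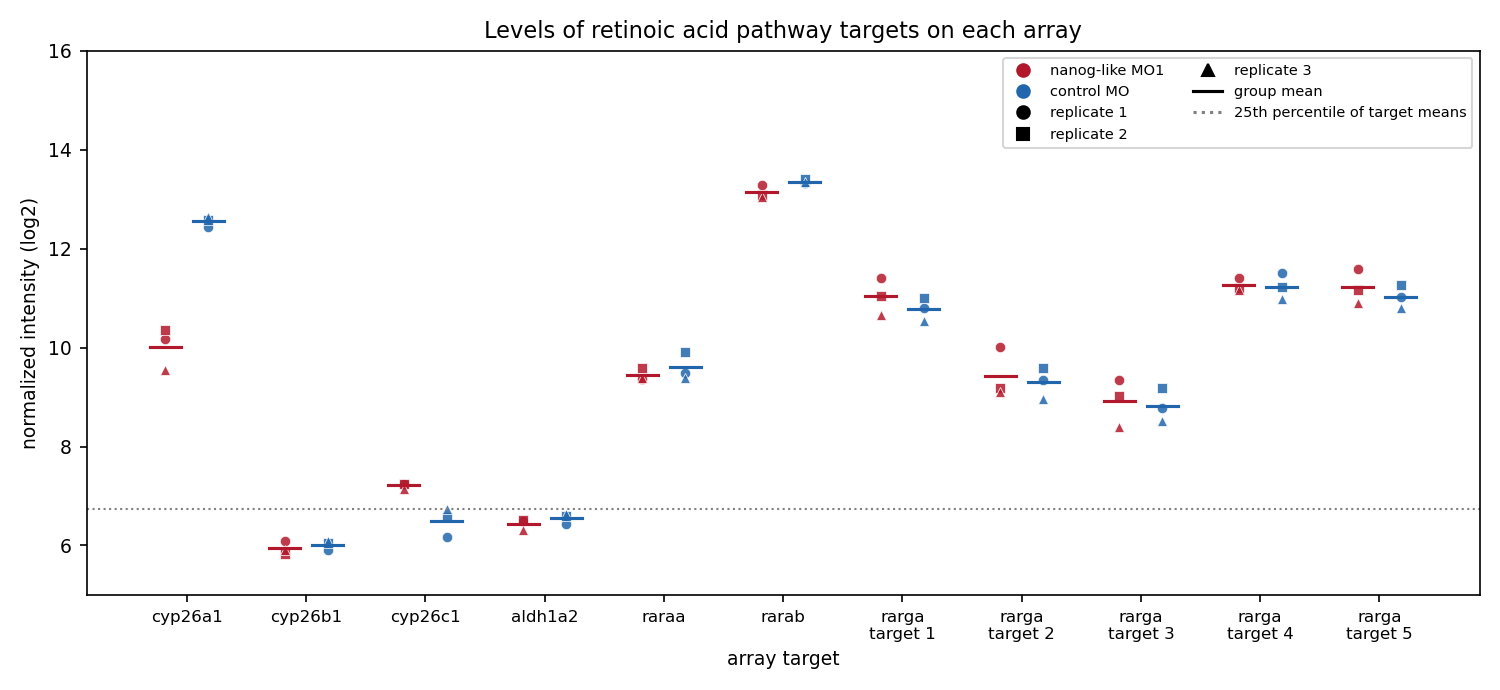
Normalized intensity (log2) of each of the 11 member targets on each array, nanog-like MO1 in red to the left of control MO in blue, with marker shapes for replicates and bars for group means. The cyp26a1 arrays are widely separated (10.02 against 12.55), cyp26b1 and aldh1a2 lie under the dotted 25th percentile of target means, and the rarga targets 1 to 5, in the order of the text, overlap between groups.

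The related enzyme gene cyp26c1 showed a difference of the opposite sign that did not pass the test. Raw intensities were 207, 168 and 228 in nanog-like MO1 embryos and 116, 134 and 159 in control embryos. Every morpholino array was above every control array, though all of them were dim. Normalized levels averaged 7.21 ± 0.06 in nanog-like MO1 embryos and 6.50 ± 0.29 in control embryos (SD, n = 3 each). The log2 fold change was 0.72 (SE 0.16, 95% interval 0.33 to 1.103, limma adjusted p = 0.184). Its p before adjustment was under 0.05, as was that of 1 other member, cyp26a1, while 5.3% of all targets were higher and 5.03% lower by that looser rule. Arrays of the 2 groups were fully separate on 3 of the 11 member targets, against 15.3% of all targets (7.97% lower, 7.36% higher), and nothing is read from so small a count. In control embryos the mean of cyp26c1 was under the 25th percentile of target means (6.74), where the offset used compresses differences. The authors' value table gave 1.16 for it (adjusted p = 0.0755). The design places the target on chromosome 17 from 18205733 to 18218194. A further sequence placed inside this span, from 18215147 to 18217476, carries a human CYP26C1 match but no zebrafish name, so it is no member. It had 6.56 ± 0.11 in nanog-like MO1 embryos and 6.49 ± 0.03 in control embryos (SD, n = 3 each), with a log2 fold change of 0.07 (SE 0.10, adjusted p = 0.892). The groups overlapped on this second sequence, unlike on the named target.

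The third degrading enzyme gene, cyp26b1, was at the floor of the arrays. Its raw intensities of 112, 84 and 133 in nanog-like MO1 embryos and 105, 106 and 123 in control embryos exceeded those of at most 4.45% of targets on any array. No group stood above the other. The log2 fold change was -0.08 (SE 0.12, 95% interval -0.36 to 0.21, adjusted p = 0.907). A difference was not detectable at this level, and no detection call was in the columns used here. The array design gives no position for this target.

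The gene for the synthesising enzyme, aldh1a2, was also dim. Raw intensities were 139, 113 and 153 in nanog-like MO1 embryos, against 130, 135 and 153 in control embryos, above 11.9% to 22.6% of targets. Normalized levels were 6.44 ± 0.11 in nanog-like MO1 embryos and 6.56 ± 0.10 in control embryos (SD, n = 3 each), and the groups overlapped. The log2 fold change of -0.11 (SE 0.11, adjusted p = 0.825) had a 95% interval of -0.38 to 0.15. In the authors' value table it was -0.52 (adjusted p = 0.497). In the design the target spans 26157023 to 26197496 on chromosome 7. Of the 4 enzyme genes, only cyp26a1 had means above the 25th percentile in both groups.

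The receptor genes gave clear signals in both groups and none of them passed. The rarab target was bright on all arrays, above 91.7% to 94.7% of targets. Its normalized levels were 13.29, 13.08 and 13.05 in nanog-like MO1 embryos and 13.32, 13.41 and 13.34 in control embryos. The groups did not overlap, but by a margin of only a few hundredths on the log2 scale. The log2 fold change was -0.22 (SE 0.11, 95% interval -0.48 to 0.04, adjusted p = 0.575), and the low end of the interval is a level 1.39-fold lower. The design places this receptor gene on chromosome 3 from 24616268 to 24664555. Its duplicate raraa, on chromosome 12 from 6417300 to 6493761, had 9.36, 9.59 and 9.38 in nanog-like MO1 embryos and 9.49, 9.91 and 9.39 in control embryos. These values overlapped. The log2 fold change of raraa was -0.15 (SE 0.16, 95% interval -0.55 to 0.24, adjusted p = 0.843).

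The third receptor gene, rarga, was read by 5 targets, none of which passed. Targets 1 to 3 carry its name, and the design places them on chromosome 23 from 28650752 to 28695957, 28579422 to 28683875 and 28579760 to 28683875. Targets 4 and 5 were named by map marker and are placed on the same chromosome from 33567071 to 33612643 and from 33567319 to 33611733. The design can give different positions for the same gene on targets of different types. For nr2f2, on chromosome 18, these run from 10640927 to 10647647 and from 23645985 to 23652703. On chromosome 23 itself, tuba1b is placed from 28440778 to 28443740 on 1 target and from 33339205 to 33342700 on its map-marker target. The positions of rarga targets 4 and 5 therefore do not show that they lie apart from targets 1 to 3. Log2 fold changes of targets 1 to 5 were 0.26, 0.13, 0.10, 0.02 and 0.18, with SE from 0.16 to 0.28 and adjusted p from 0.785 to 0.985. The brightest on average, target 4, had 11.40, 11.21 and 11.16 in nanog-like MO1 embryos and 11.50, 11.22 and 10.98 in control embryos. Its 95% interval was -0.36 to 0.41. All 5 intervals contained 0 and all 5 targets overlapped between groups. On targets 1, 2, 3 and 5 nanog-like MO1 replicate 1 was the highest of the 6 arrays, and without it targets 1 to 5 had log2 fold changes of 0.07, -0.16, -0.12, -0.05 and -0.001. These targets share a gene, so they are no separate measurements of it. Brightness among the probes of 1 target was uneven for targets 1, 3 and 5. Their coefficients of variation over arrays were 1.02 to 1.24, 0.74 to 1.20 and 1.27 to 1.41. Probes were more even for targets 2 and 4, at 0.21 to 0.34 and 0.34 to 0.46.

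**Figure D2:**
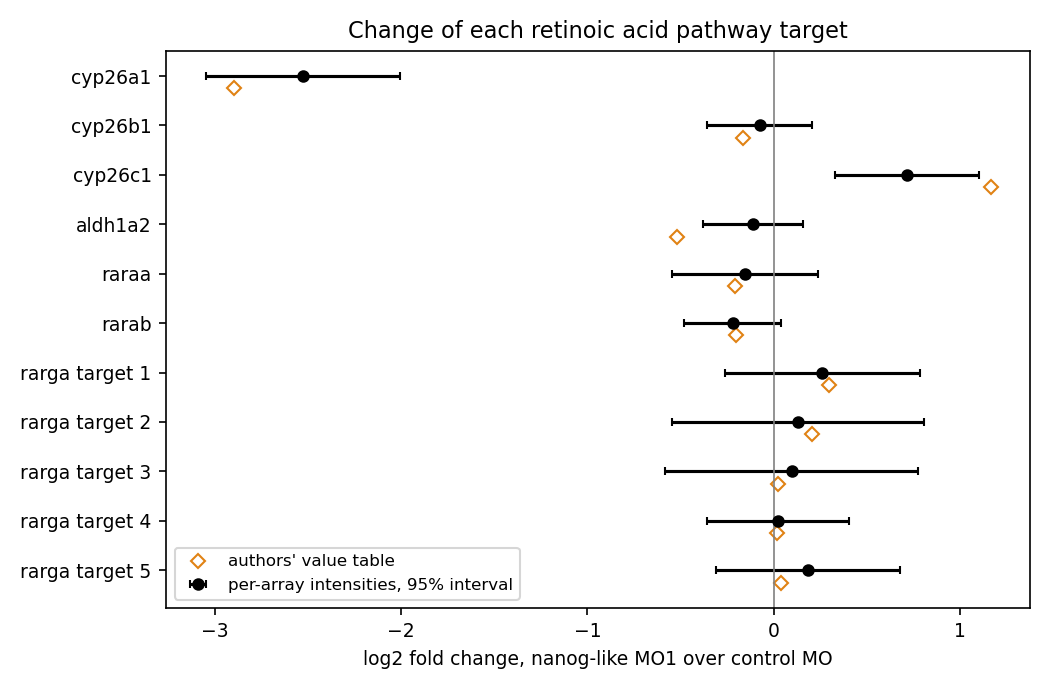
Log2 fold change (nanog-like MO1 over control MO) of the 11 member targets, with 95% intervals from the fit as black points and bars and values from the authors' table as open diamonds. The interval of cyp26a1 (-3.05 to -2.01) lies far below 0, that of cyp26c1 (0.33 to 1.103) above it without passing the adjusted test, and the other 9 contain 0.

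The median log2 fold change was 0.025 over the 11 targets, against -0.012 over all targets. Of the 11, 5 are targets of rarga, which are no separate measurements, and 0.025 is the value of rarga target 4. With 1 target per gene the middle value of the 7 members was that of aldh1a2 (-0.113), and only cyp26c1 and rarga lay above 0.

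Targets that the design places near the member genes did not pass. Its positions can differ between target types for the same gene, so nearness across types is not shown. Within 100 kb of cyp26a1 by these positions were 5 targets, with log2 fold changes from -0.25 to 0.30. Those with a zebrafish gene name were exoc6, a gene of the exocyst complex (0.16, SE 0.14, adjusted p = 0.791), and reep3b (-0.25, SE 0.12, adjusted p = 0.583). Within the same distance by position were 6 targets for cyp26c1, 5 for aldh1a2, 5 for raraa and 3 for rarab, and 0 of them passed in limma. The largest difference among these was 0.65 (SE 0.17, adjusted p = 0.239) for egr2b, a hindbrain transcription factor gene named after its value was seen. Its target and that of raraa are of different types, so egr2b is not shown to lie near raraa.

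The genes whose levels were most like those of cyp26a1 were sought among 10674 other named genes by Pearson's correlation over the 6 arrays. Genes with a provisional symbol, beginning with LOC, si:, zgc:, wu: or im:, were left out of this search. Both groups enter the correlation, so that for cyp26a1 it mostly ranks genes by how cleanly the groups part, and it is given as a description. The 5 highest were ankrd39 (r = 0.994), inka1a (0.992), id1 (0.991), st6galnac4 (0.988) and arl4ab (0.988). Their log2 fold changes were -0.68, -2.83, -1.42, -0.35 and -3.11 in that order, so the size of the shift ranged widely among them. In limma st6galnac4 did not pass (adjusted p = 0.259). The others did, ankrd39 narrowly (adjusted p = 0.0458), and its call was lost under 12 of 15 alternatives. That of id1 was lost under 5 of the 15, and those of inka1a and arl4ab under 1 each. Among these genes, id1 encodes an inhibitor of basic helix-loop-helix factors and is a target of BMP signalling. For rarab, the brightest member, the 5 highest were prkcba (0.998), mixl1 (0.991), pth1r (0.986), pth2ra (0.986) and edem2 (0.984), with log2 fold changes from -1.48 to -0.27. None of these 5 passed in limma (adjusted p from 0.25 to 0.542). On rarab, nanog-like MO1 replicate 1 (13.29) lay close to the lowest control array (13.32). Likeness to rarab therefore does not mostly rank genes by how cleanly the groups part. Without nanog-like MO1 replicate 1, prkcba and mixl1 passed (adjusted p = 0.0417 and 0.0375). The value of mixl1 was -1.48 (SE 0.39), but -0.12 in the authors' value table (adjusted p = 0.897).

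Other genes that handle retinoids did not pass. Of 20 further enzyme genes listed 11 were measured, of which limma called 0 higher and 0 lower (3 with p under 0.05 before adjustment), with a median log2 fold change of -0.029. Those with the largest differences were both P450 genes. The gene cyp1b1, whose product can oxidise retinol in chick, had 10.54, 11.08 and 10.88 in nanog-like MO1 embryos and 9.36, 9.43 and 10.39 in control embryos. Its log2 fold change was 1.11 (SE 0.30, adjusted p = 0.27). The gene cyp27c1, whose product turns vitamin A1 into vitamin A2 in zebrafish, had 9.45, 9.27 and 10.09 in nanog-like MO1 embryos and 8.57, 8.48 and 8.60 in control embryos. Both genes were higher on every morpholino array than on any control array, as were 7.36% of all targets. In the same list rdh14a (-0.28) and dhrs3b (-0.31), named after their values were seen, parted the other way. They were lower on every morpholino array than on any control array, as were 7.97% of all targets. For cyp27c1 the log2 fold change was 1.06 (SE 0.22, adjusted p = 0.144), and 1.22 (SE 0.24, adjusted p = 0.125) on its second target. In the authors' value table cyp27c1 passed, at 1.30 (adjusted p = 0.0455). The second target there had adjusted p = 0.086.

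Of 11 measured genes for binding proteins and transporters of retinoids, of 18 listed, 0 passed in limma (2 at an unadjusted p under 0.05), with a median of -0.013. The largest differences were -0.62 (SE 0.19, adjusted p = 0.339) for rlbp1b, which encodes a retinaldehyde-binding protein, and 0.35 (SE 0.13, adjusted p = 0.416) for crabp2a, which encodes a carrier of retinoic acid. The crabp2a target was dim, below the 25th percentile, and its value was 0.60 with an offset of 16 and 1.16 in the authors' value table (adjusted p = 0.188). That of rlbp1b was -0.996 (adjusted p = 0.338) with the term for array number ranges. The retinol transporter gene stra6, chosen after its values were seen, gave 11.21 ± 0.12 in nanog-like MO1 embryos and 11.16 ± 0.10 in control embryos (SD, n = 3 each). Of 9 measured receptor and coregulator genes, of 20 listed, 0 passed in limma (0 at an unadjusted p under 0.05), with a median of -0.05. For rxrga, a retinoid X receptor gene, the log2 fold change was 0.44 (SE 0.39, adjusted p = 0.804). A second rxrga target had 0.16 (adjusted p = 0.751).

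Of 25 measured genes known to respond to retinoic acid or to act with its hox targets, of 26 listed, 1 rose, 0 fell and 24 did not pass (2 of these 24 had an unadjusted p under 0.05), with a median of 0.022. The one that rose was cdx4, whose caudal-type homeobox product patterns the posterior body. It had 8.69, 9.07 and 8.84 in nanog-like MO1 embryos and 7.35, 7.71 and 7.07 in control embryos, groups that were well apart. The level was 2.81-fold higher (log2 fold change 1.49, SE 0.19, adjusted p = 0.0331), and its second target rose too (1.60, SE 0.14, adjusted p = 0.00688). Both targets have only 4 probes and share a gene, so they are no separate measurements of it. In the authors' value table the first target passed (1.91, adjusted p = 0.0329) and the second, at 1.94, did not (adjusted p = 0.0636). The call on the first target held without control replicate 2 (adjusted p = 0.0323) and was lost without each of the other 5 arrays, at adjusted p from 0.101 to 0.142. It was lost with the term for array number ranges as well (adjusted p = 0.322). Of 12 hox genes in the list 0 passed in limma (0 at an unadjusted p under 0.05), with log2 fold changes from -0.54 to 0.29, and 6 of the 12 lay below the 25th percentile. The lowest value was that of hoxa1a, a dim target, where control replicate 1 (7.647) lay apart from control replicates 2 and 3 (6.325 and 6.499). Its second target had 0.11, and the authors' value table gave -0.01 for the first. The largest fall by value in the list, named after its values were seen, was -1.48 (SE 0.36, adjusted p = 0.22) for hnf1ba, a homeobox gene of the caudal hindbrain. Centring arrays on 13 reference genes moved the median of all targets to 0.099, by 0.111, and turned the medians of the first 3 of these lists positive (0.083, 0.098 and 0.061), with the same counts of genes passing.

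**Figure D3:**
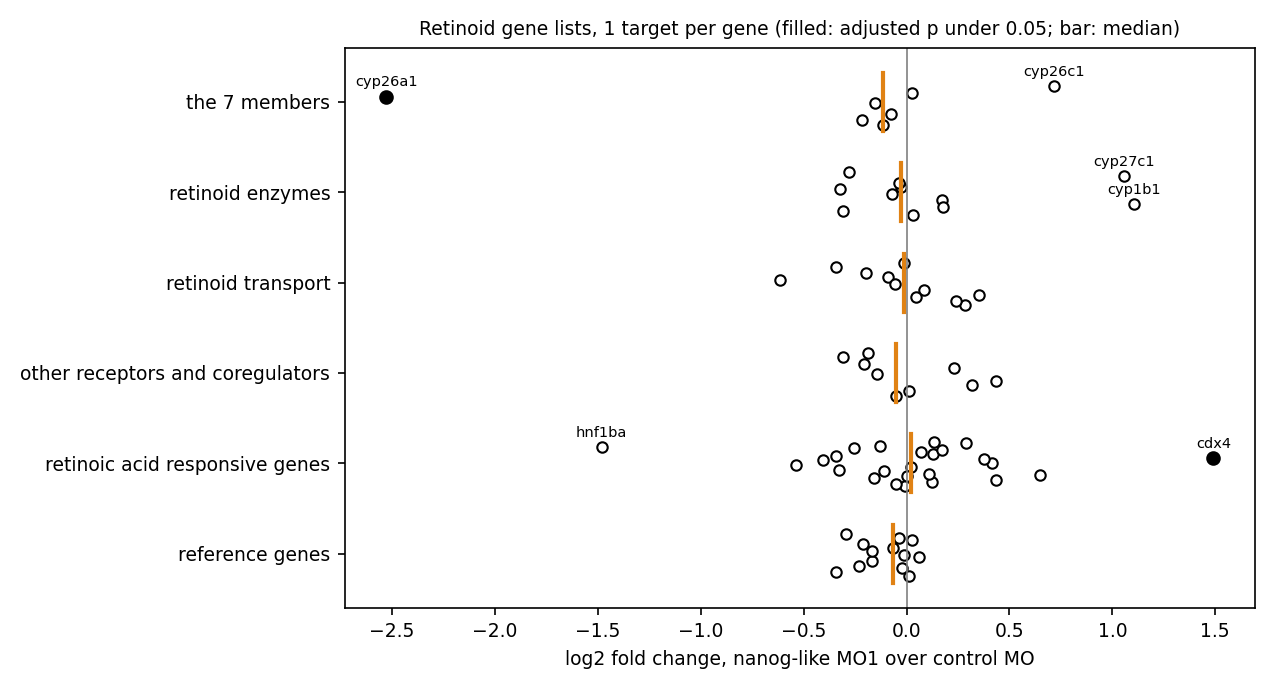
Log2 fold change (nanog-like MO1 over control MO) of the 7 members and of each measured gene in 4 retinoid lists and 1 list of reference genes, 1 target per gene, with orange bars for medians and filled points for an adjusted p under 0.05. Only cyp26a1 (-2.53) and cdx4 (1.49) are filled. The list medians lie between -0.067 and 0.022, and the bar of the 7 members lies lower, at the value of aldh1a2 (-0.113).

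Under the 15 alternatives tried, log2 fold changes of cyp26a1 ran from -3.01 to -2.30, and the test was passed under 13 of them, the exceptions being those without control replicate 3 and with the array number ranges as a term. Those of cyp26c1 ran from 0.51 to 1.16 and passed under none of 15, with adjusted p from 0.0755 to 0.577.

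**Figure D4:**
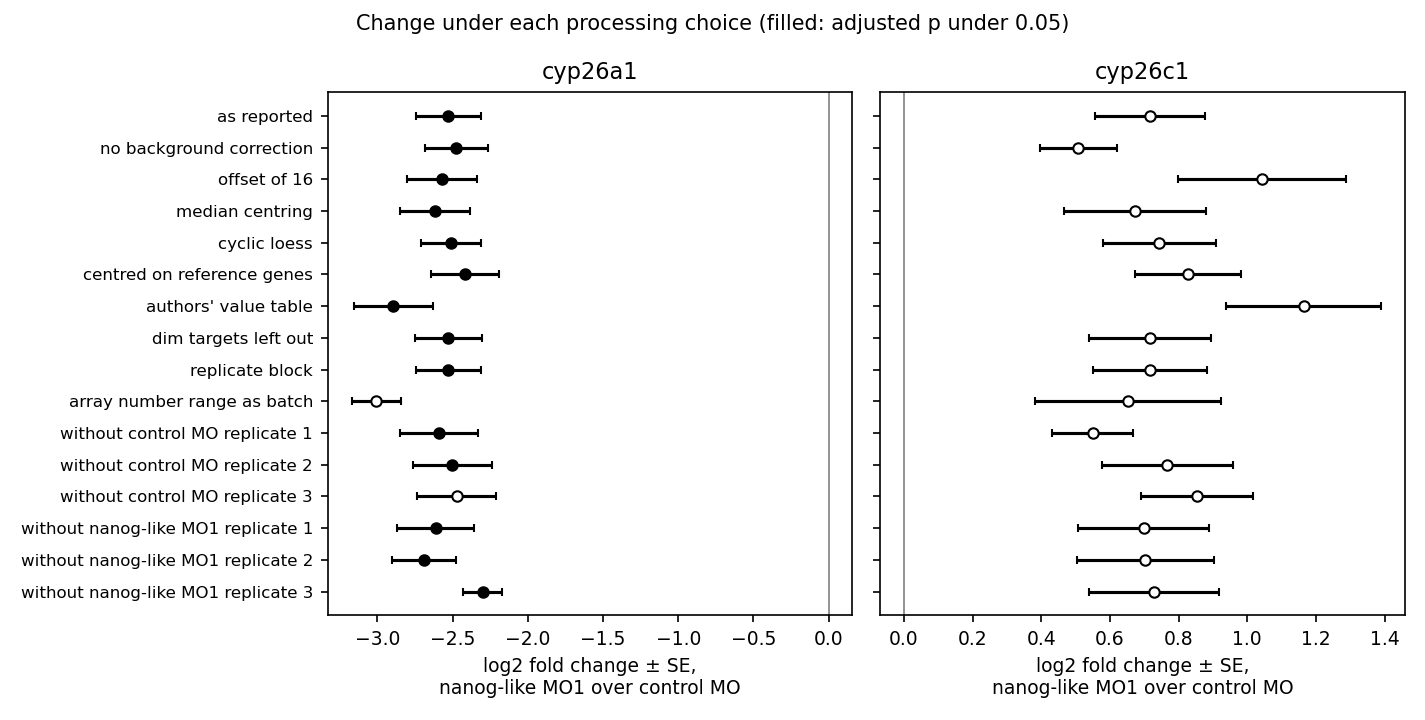
Log2 fold change ± SE (nanog-like MO1 over control MO) of cyp26a1 on the left and cyp26c1 on the right as reported and under each of 15 alternatives, filled where the adjusted p was under 0.05. All cyp26a1 values lie at or below -2.30, 2 of them open, and all cyp26c1 values lie above 0 and are open.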

How the data were processed

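Per the file headers, the authors deposited for each array 1 intensity per target, the mean brightness of its perfect-match probes, with the number of probes kept and their coefficient of variation. These intensities were not normalized between arrays. The authors' deposited value table of the same arrays holds intensities on a linear scale. The submitters' processing notes name RMA, with its version, scaling and centring not given in the sources used here. The table served as an alternative (r = 0.889 with the log2 fold changes used here, across targets, not independent replicates).

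Normexp with an offset of 50 removed background, followed by quantile normalization and log2. The offset compresses differences of dim targets. A model with group alone was fitted to all 38489 targets in limma 3.58.1 (R 4.3.3) with moderated 2-sided tests, Benjamini-Hochberg adjustment over every target and 95% intervals from the moderated SE. Fold changes are nanog-like MO1 over control MO. The fit was also run on simulated data with independent noise per target and no array effects, which is no check on array effects.

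Genes were named through the array design and a RefSeq table of GRCz12tu, from which no coordinate was used. A symbol was found for 16576 targets, and 1380 reverse-strand targets were not named. Coordinates are those of the design, whose scaffold names are of build Zv7. Positions on chromosomes can differ between target types for the same gene, so a single build for all of them is not shown. Where a gene had several targets, the brightest on average stood for it. Named are all members, up to 4 genes per list that passed or else the 2 with the largest difference, and the 5 genes most like each member that passed and like the brightest member. Of the genes listed, those with no named target were not analysed here. One gene that the rule names is not reported here. Members and lists were chosen with earlier results of these data known. Replicate numbers were not shown to pair the samples by the correlations of their deviations from group means (-0.0133, -0.0968 and 0.171 for numbers 1 to 3). So few correlations cannot exclude pairing.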

Additional observations from a re-analysis of the deposited data

How the results depend on the processing

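With 3 arrays per group, and 2 of the 3 morpholino arrays outside the array number range of the controls, array effects limit every call, and dim targets near the lowest signal (cyp26b1, aldh1a2) limit what can be measured. Leaving out 1 array at a time gave 34 to 67 targets higher and 59 to 120 lower, fewest without control replicate 3, against 100 and 150 on all arrays. For cyp26a1 it gave log2 fold changes of -2.691 to -2.299, with adjusted p from 0.0128 to 0.052, lost without control replicate 3. The authors' value table gave 163 targets higher. With the replicate block there were 45 higher and 88 lower, and cyp26a1 had adjusted p = 0.0427, but pairing of the samples by number was not shown. Under the block cdx4 was lost (adjusted p = 0.0546) and hnf1ba passed (adjusted p = 0.0427). A term for array number ranges rests the contrast on 1 morpholino array. There limma passed 0 targets higher and 0 lower (1906 and 1676 at an unadjusted p under 0.05), and cyp26a1 was at -3.008 (adjusted p = 0.0833). Signs turned only for values that passed under no setting, and the cause was not tested. These were cyp26b1 centred on reference genes (0.035), raraa when 1 array was left out (-0.259 to 0.003), and rarga target 4 under median centring (-0.058), with the range term (-0.071) and when 1 array was left out (-0.100 to 0.161). With the range term rarga targets 1, 2, 3 and 5 were at -0.112, -0.203, -0.433 and -0.123. Leaving out 1 array gave -0.156 to 0.300, -0.122 to 0.364 and -0.001 to 0.340 for targets 2, 3 and 5. The value of rxrga was -0.011 in the authors' value table and -0.436 with the range term.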
